A study of Macaca mulatta with 8 samples.

Results

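The genes described here carry glucose and lactate across cell membranes or set the pace of glycolysis, and 10 of them were followed: the glucose carriers SLC2A1 and SLC2A3, the lactate carriers SLC16A1, SLC16A3 and SLC16A7, the hexokinases HK1 and HK2, the regulator PFKFB3, and the lactate dehydrogenase subunits LDHA and LDHB. They were chosen by symbol, and all 10 are among the 21748 genes of the deposited matrix. Their RNA was compared across 5 classes of brain nuclei: endothelial cells, astrocytes, microglia, oligodendrocytes and neurons. The study used droplet-based 3' sequencing (10x Genomics chemistry v3) on single nuclei, taken from the frozen brains of male rhesus monkeys. The exposed group was 4 samples from 1 animal that breathed about 2.5 to 3% sevoflurane, an anaesthetic gas, for 4 h in each of 3 sessions, the first near postnatal day 7. The labels place the later sessions at 14 and 28 days without saying whether these are ages or intervals. The control group was 4 samples from the mixed tissue of 2 animals. The exposed samples thus came from 1 animal and the control samples from mixed tissue, so samples within a group do not show variation between animals. The labels name the brain region in conflict: hippocampus among the characteristics, amygdala in the growth protocol.

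Brain tissue lives on glucose, which crosses the blood-brain barrier through SLC2A1 (GLUT1) of the endothelium and enters neurons mainly through SLC2A3 (GLUT3). Hexokinases trap it by phosphorylation, PFKFB3 makes fructose 2,6-bisphosphate, an activator of phosphofructokinase, and the lactate dehydrogenases interconvert pyruvate and lactate. In the view drawn mostly from rodents, astrocytes and oligodendrocytes run glycolysis and release lactate through SLC16A3 (MCT4) and SLC16A1 (MCT1), and neurons take it up through the high-affinity carrier SLC16A7 (MCT2).

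The matrix held 59749 barcodes with 331133661 unique molecular identifiers (UMIs, counted RNA molecules), in 8 libraries of 35806547 to 47007082 UMIs that are numbered here by barcode suffix. No source used here ties a suffix to a sample. Sevoflurane and control were therefore not compared, the matrix counts as 1 sample, and no p-value was computed. A set of 429 barcode sequences occurred in more than 1 library, on 860 barcodes (1.44%). The 54644 nuclei analysed included 426 endothelial, 8299 astrocyte, 2969 microglial, 5981 oligodendrocyte and 28331 neuronal nuclei, with median depths of 2385, 2124, 1590, 2820 and 7431 UMIs. The class names are short for endothelial-like, astrocyte-like and so on, by the markers that the clusters carry, and none of the 10 genes or of the pathway genes took part in the clustering. All 12 endothelial markers reached 20 counts per 1000000 UMIs (CPM) in the endothelial class, as did 9 of 10 astrocyte, 9 of 10 microglial, 8 of 8 oligodendrocyte and 8 of 10 pan-neuronal markers in theirs. The microglial class also held astrocyte markers at a summed 3314 CPM, against 18630 CPM in astrocytes. Its 10 leading genes include MRC1 and CD163, genes of brain macrophages, and the markers used do not separate these from microglia.

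Libraries 1 to 4 stood apart from libraries 5 to 8. Their median depth was 3189 to 3426 UMIs per nucleus, against 5730 to 5831 in libraries 5 to 8, and most microglia (2763 nuclei in libraries 1 to 4) and oligodendrocytes came from libraries 1 to 4. The microglial and oligodendrocyte classes held only 39 to 75 nuclei in each of libraries 5 to 8, so single-library values there rest on a few UMIs. A cluster of 496 nuclei (3 in libraries 1 to 4, and 126, 123, 144 and 100 in libraries 5 to 8) was led by the microglial genes CX3CR1 and CSF1R but scored highest for markers of other types and had a median doublet score of 0.62, and it stayed unnamed and outside the microglial class. Most astrocytes of libraries 1 to 4 fell in cluster 0 and most of libraries 5 to 8 in cluster 3. Endothelial nuclei numbered 22 to 104 per library. The plot by library shows how several of the genes split along this line, and results that turn on it are given within the sets. Whether the sets follow the study's groups is not given in the sources used here.

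**Figure D1:**
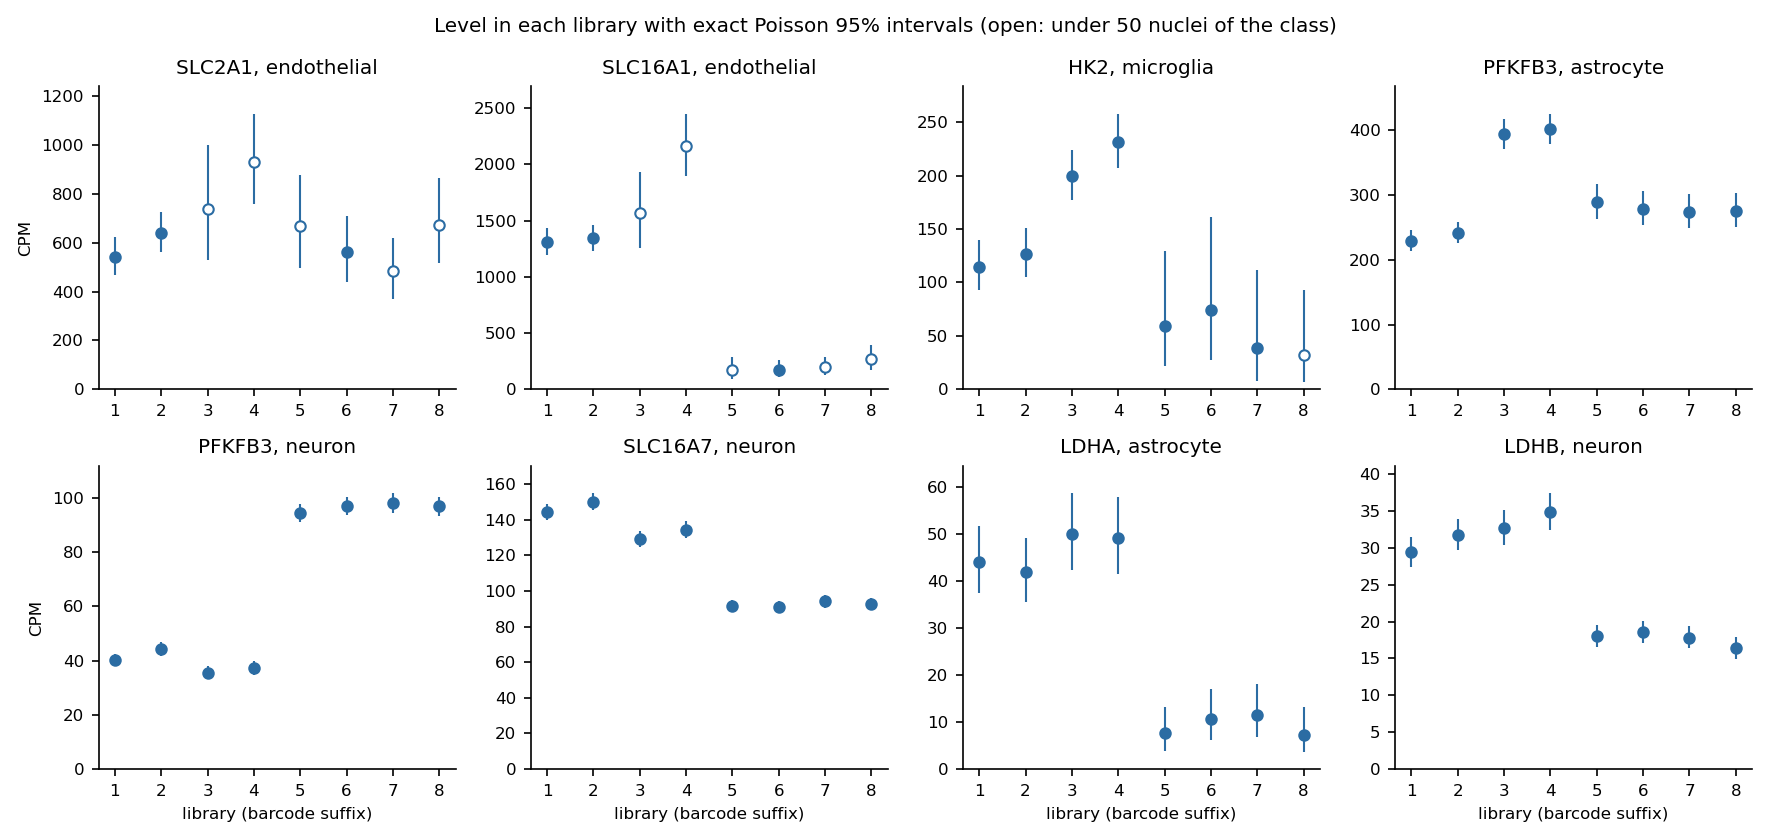
Level (CPM, y axis from 0) of 7 of the genes in the class named above each panel, by library (x axis), with exact Poisson 95% intervals; open points are libraries with under 50 nuclei of the class. Endothelial SLC16A1 lay between 1308 and 2161 CPM in libraries 1 to 4 and between 170 and 266 CPM in libraries 5 to 8, while endothelial SLC2A1 overlapped between the sets.

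Levels are UMIs summed per class as CPM, with exact Poisson 95% intervals that cover counting error only. A gene was called higher or lower in a class under 3 conditions: a ratio of CPM of 2-fold or more, 10 CPM or more in the higher of the classes, and an unchanged direction across the libraries that held 50 or more nuclei of each. The endothelial comparisons could be checked in this way in 3 libraries (1, 2 and 6). Endothelial calls within libraries 1 to 4 thus rest on libraries 1 and 2, and those within libraries 5 to 8 on library 6 alone. A class led for a gene if it reached 10 CPM, stood at least 2-fold over the next of the 5 classes, and was highest in every library with at least 50 nuclei of both. Transcript lengths were not used, so levels are compared between classes within a gene and not between genes.

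Of the 10 genes, 9 reached 10 CPM in at least 1 class and 4 of these had a leading class, against 23.5% of all 11665 genes measured. The endothelial class led for SLC2A1, SLC2A3 and SLC16A1 (5.76% of all genes had this leading class), and microglia led for HK2 (5.02% of all genes). No member was led by astrocytes (3.96% of all genes), oligodendrocytes (3.29%) or neurons (5.48%). The endothelial lead of SLC2A3 was not kept within libraries 5 to 8, where the class had 52.2 CPM, against 60.7 CPM in neurons. Mural cells and fibroblasts were not among the 5 classes ranked.

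**Figure D2:**
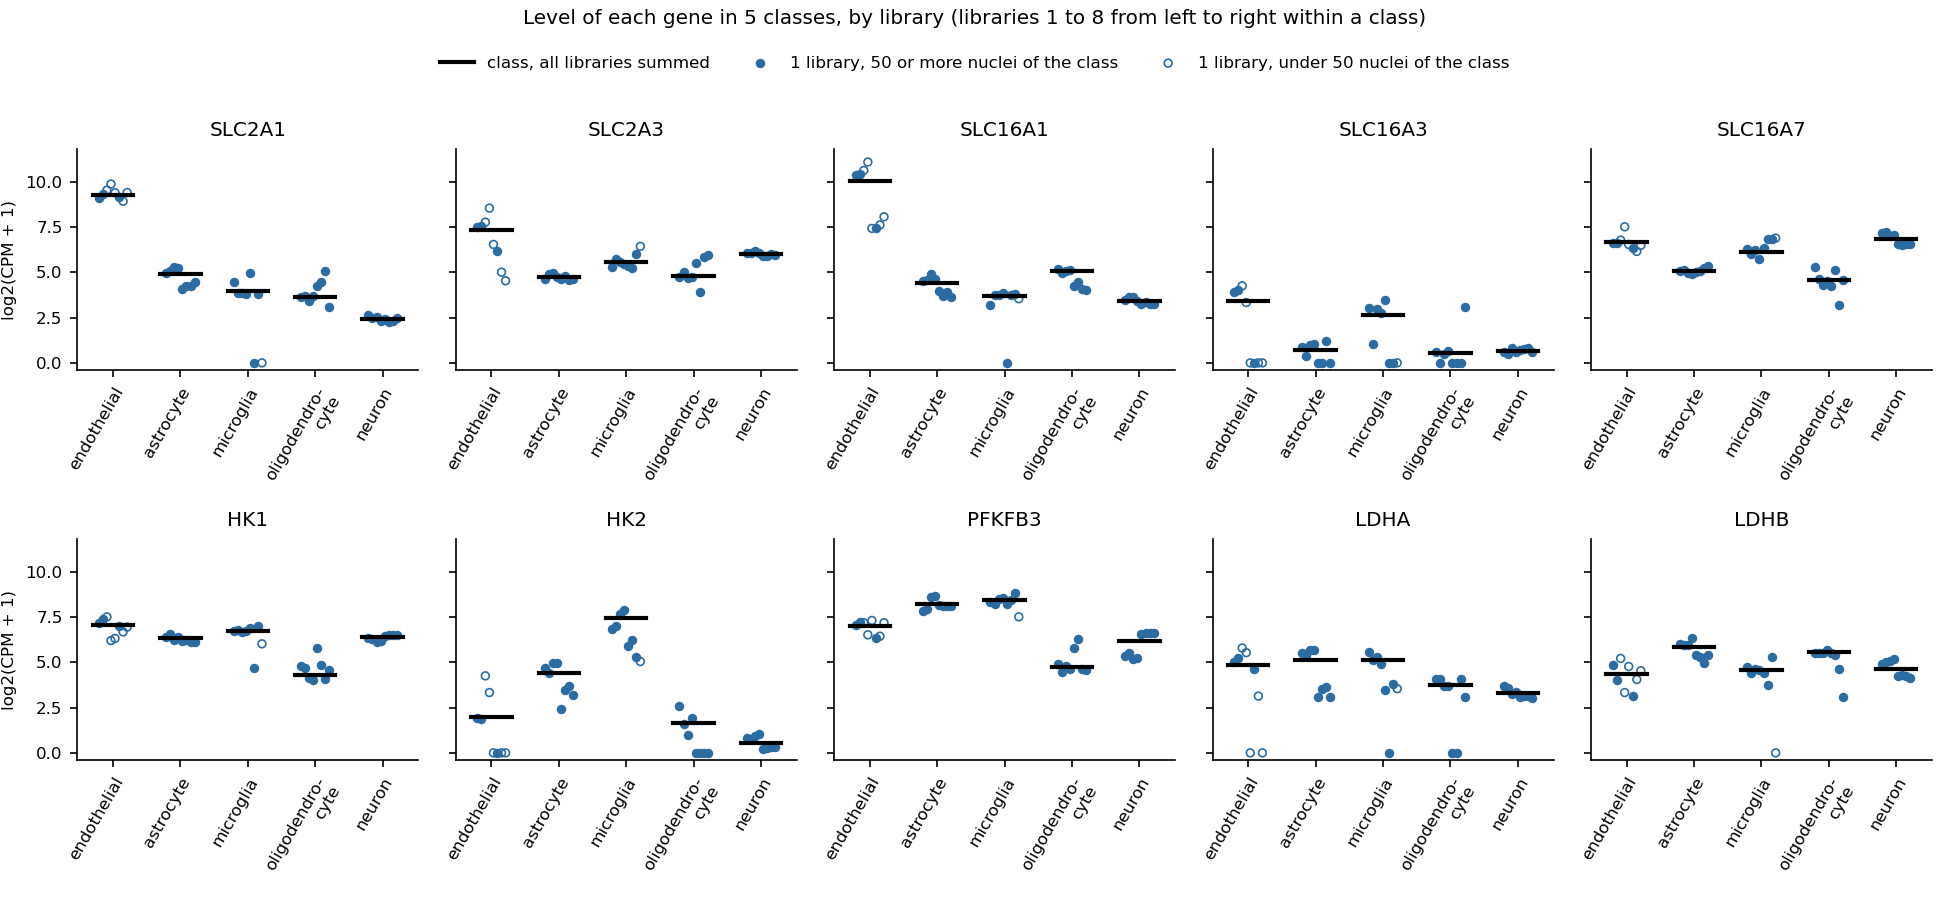
Level of each gene in the 5 classes as log2(CPM + 1), with the class sum as a bar and the 8 libraries as points from left (library 1) to right (library 8), open where the class had under 50 nuclei. SLC2A1 and SLC16A1 peaked in the endothelial class at 623 and 1048 CPM, HK2 in microglia at 170 CPM, and PFKFB3 in microglia and astrocytes at 344 and 299.9 CPM.

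SLC2A1 (ENSMMUG00000000373), the glucose carrier of the barrier, reached 623 CPM in endothelial nuclei (95% interval 581 to 667), and its lowest, median and highest library values were 482, 654 and 931 CPM. In astrocytes it stood at 29.0 CPM (libraries 15.8, 25.7 and 38.8), and in neurons at 4.37 CPM (3.72, 4.46 and 5.26). Every endothelial library was more than 10-fold above every library of the other 4 classes compared. The endothelial level was 142.5-fold that of neurons (interval 130 to 156.5) and 21.5-fold that of astrocytes (19.3 to 23.9), and both ratios were called. Microglia had 14.5 CPM and oligodendrocytes 11.2 CPM, and these neighbours in the order did not differ beyond counting error (ratio 1.29, interval 0.975 to 1.69). Astrocytes were called higher than neurons, by 6.64-fold (5.97 to 7.37), and so were oligodendrocytes, by 2.57-fold (2.21 to 2.99). Within libraries 5 to 8 the SLC2A1 log2 ratios to neurons were 2.13 for astrocytes (2.73 over all libraries) and 2.225 for oligodendrocytes (1.36 over all), still called. The oligodendrocyte call was lost with a minimum of 20 CPM.

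Seen per nucleus, SLC2A1 was detected in 60.8% of endothelial nuclei and 3.35% of neurons. With every nucleus thinned to 1000 UMIs, leaving out 58 endothelial, 323 astrocyte, 269 microglial, 93 oligodendrocyte and 100 neuronal nuclei with fewer, these shares were 40.5% (exact Clopper-Pearson interval 35.4 to 45.7%) and 0.485% (0.408 to 0.573%). The thinned share was 2.65% in astrocytes (2.30 to 3.02%), above that of neurons and far under that of endothelial nuclei.

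SLC2A3 (ENSMMUG00000046124), known as the neuronal glucose carrier, was also highest in endothelial nuclei. It had 158 CPM there (137.5 to 181), against 63.3 CPM in neurons (62.3 to 64.4), a called ratio of 2.50-fold (2.17 to 2.86). The neuronal value was even across libraries, with a lowest of 59.0, a median of 63.4 and a highest of 70.0 CPM. The endothelial value was not even: it was 181 to 371 CPM in libraries 1 to 4 and 22.1 to 91.7 CPM in libraries 5 to 8. In libraries 5 to 8 alone the log2 ratio to neurons was -0.22, the opposite direction. Against astrocytes the endothelial SLC2A3 level was 6.06-fold higher (5.13 to 7.13) and called, with a log2 ratio of 2.60, and 1.11 in libraries 5 to 8. Mural cells and fibroblasts, the other vascular class, had 146 CPM (120 to 177; 405 nuclei). The endothelial class carried mural markers at a summed 812 CPM, against 1454 CPM in the mural class, and their part in its SLC2A3 level was not tested.

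Among the remaining classes, neurons were above microglia for SLC2A3 by 1.39-fold (1.22 to 1.58), and microglia had 45.7 CPM. Oligodendrocytes and astrocytes had 26.5 and 26.1 CPM, and their ratio of 1.01 (0.894 to 1.15) was within counting error. Astrocytes were called lower than neurons, with an SLC2A3 log2 ratio of -1.28 in 8 of 8 libraries. Oligodendrocytes were also called lower than neurons (log2 ratio -1.26), but the call was lost in libraries 5 to 8 alone (-0.50), with libraries weighted equally (-0.85), with trimmed-mean scaling (-1.22) and at a finer clustering (-1.27).

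The balance of the glucose carriers turned over between classes. SLC2A1 gave 79.8% of the UMIs of the pair in endothelial nuclei (exact interval 77.2 to 82.2%), 52.6% in astrocytes, 29.8% in oligodendrocytes, 24.1% in microglia and 6.45% in neurons (6.07 to 6.86%). Over the 8 neuronal libraries the share ran only from 5.71 to 7.36%. These shares are read across classes only, since capture differs between genes.

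**Figure D3:**
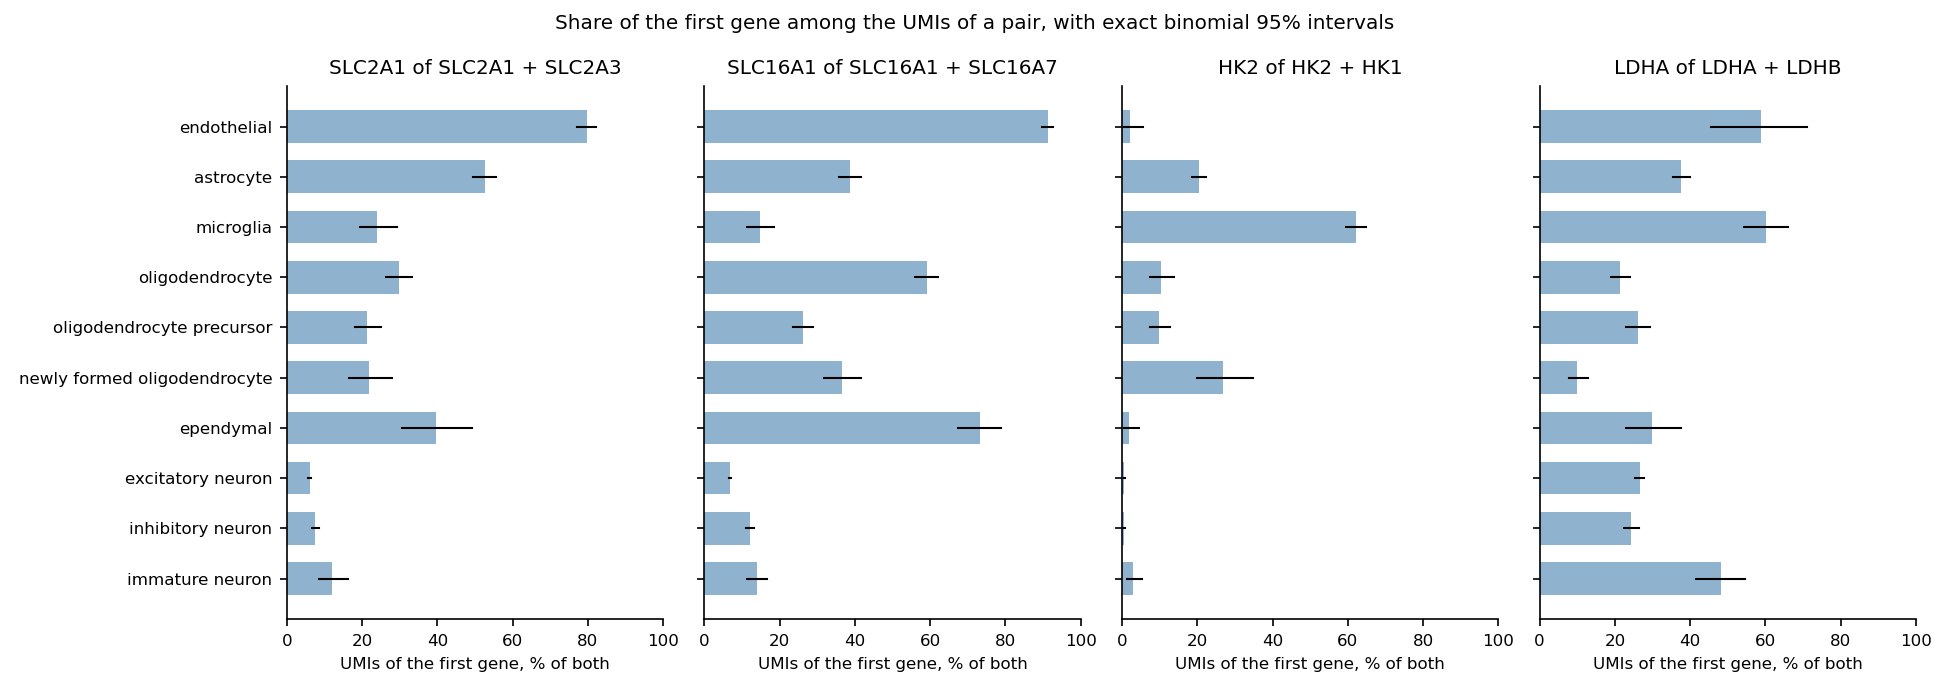
Share of the first gene among the summed UMIs of each pair (x axis, %), by class, with exact binomial 95% intervals as black lines. The SLC2A1 share was 79.8% in endothelial nuclei and 6.03% in excitatory neurons, and the HK2 share was 62.2% in microglia but 0.547% in excitatory neurons.

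SLC16A1 (ENSMMUG00000006171), which moves lactate, pyruvate and ketone bodies in either direction, had 1048 CPM in endothelial nuclei (994 to 1105). Oligodendrocytes followed at 32.7 CPM (30.2 to 35.4), then astrocytes at 20.6, microglia at 11.7 and neurons at 9.61 CPM. The endothelial level was 109-fold that of neurons (102 to 117), 50.9-fold that of astrocytes (45.5 to 57.0) and 32.1-fold that of oligodendrocytes. Endothelial values were 1308, 1344, 1568 and 2161 CPM in libraries 1 to 4 and 170, 174, 194.5 and 266 CPM in libraries 5 to 8, so the sets did not overlap. Within libraries 5 to 8 endothelial SLC16A1 was still called higher than in neurons (log2 ratio 4.51, against 7.08 in libraries 1 to 4) and than in astrocytes (3.94, against 5.67 over all libraries). Of the endothelial clusters, cluster 41 (157 nuclei) and cluster 43 (101 nuclei) had 1432 and 1419 CPM, cluster 44 (88 nuclei) had 370 CPM, and cluster 46 (41 nuclei) had no SLC16A1 UMI but SLC2A1 at 750.4 CPM.

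Outside the vessels, SLC16A1 was called higher in oligodendrocytes than in neurons, by 3.40-fold (3.11 to 3.73) in 8 of 8 libraries; the log2 ratio was 1.77, and 1.00 in libraries 5 to 8 alone, where the oligodendrocyte class had 9 SLC16A1 UMIs. This carrier is known to supply axons with lactate from oligodendrocytes in mice. Oligodendrocytes stood 1.59-fold above astrocytes (1.40 to 1.81), in 8 of 8 libraries, which was under the 2-fold rule. Ependymal cells, which line the ventricles, had 46.4 CPM (39.8 to 53.7), but unevenly over libraries. Their values were 25.6, 25.4, 60.8 and 60.95 CPM in libraries 1 to 4 and 10.5 to 29.4 CPM in libraries 5 to 8. Their library median was 25.8 CPM, close to the 25.2 CPM of oligodendrocytes. Astrocytes were called higher than neurons at 2.14-fold (1.92 to 2.39), a value close to the threshold. That call was lost with trimmed-mean scaling (log2 ratio 0.90), with libraries weighted equally (0.945), at a coarser clustering (0.98), with a stricter filter on genes per nucleus (1.09) and in libraries 5 to 8 alone (0.57).

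SLC16A3 (ENSMMUG00000010121), the carrier with which glycolytic cells export lactate, was scarce. It had 216 UMIs in all 54644 nuclei and reached 10 CPM in no class. Its levels were 9.79 CPM in endothelial nuclei (5.21 to 16.7; 13 UMIs), 5.17 CPM in microglia (3.38 to 7.57; 26 UMIs), 0.623 CPM in astrocytes, 0.597 CPM in neurons and 0.484 CPM in oligodendrocytes. All 13 endothelial UMIs came from libraries 1 to 4. In libraries 1 to 4 alone SLC16A3 was called higher in endothelial nuclei than in neurons (log2 ratio 4.725) and than in astrocytes (4.22), and likewise with library 6 left out (4.21 and 3.99). The values of astrocytes, neurons and oligodendrocytes did not differ beyond counting error (astrocytes over neurons 1.04-fold, interval 0.526 to 1.88). Within libraries 5 to 8 astrocytes had 0.320 CPM (2 UMIs), against 0.641 CPM in neurons. An astrocytic excess of SLC16A3 over neurons was thus not detectable in these nuclei, and the upper end of the interval was 1.88-fold. In nuclei thinned to 1000 UMIs, 0.0376% of astrocytes and 0.0425% of neurons had a UMI, against 0.145% and 0.470% unthinned.

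SLC16A7 (ENSMMUG00000014778), the high-affinity lactate carrier known from neurons, was highest in neurons at 114 CPM (112 to 115), closely followed by endothelial nuclei at 99.4 CPM (83.2 to 118). The ratio of these neighbours, 1.14 (0.965 to 1.37), was within counting error. Microglia had 68.2 CPM, astrocytes 32.7 CPM and oligodendrocytes 22.6 CPM. Neuronal values were 144, 150, 129 and 134.5 CPM in libraries 1 to 4 and 91.6, 90.8, 94.1 and 92.7 CPM in libraries 5 to 8. Each neuronal library lay above every astrocyte library, where the range was 29.2 to 39.98 CPM. SLC16A7 was called lower in astrocytes than in neurons, with a log2 ratio of -1.80, and lower in oligodendrocytes than in neurons at -2.33, each in 8 of 8 libraries. Microglia were lower than neurons for SLC16A7 in 5 of 7 libraries, which was not called. Within libraries 1 to 4 they had 65.4 CPM, against 140 CPM in neurons, a called log2 ratio of -1.10. Within libraries 5 to 8 they had 104 CPM (73.5 to 144), against 92.3 CPM in neurons, the opposite direction and within counting error. Within the pair with SLC16A1, the SLC16A1 share was 91.3% in endothelial nuclei, 59.1% in oligodendrocytes, 38.6% in astrocytes, 14.7% in microglia and 7.79% in neurons. In libraries 1 and 2 the endothelial share was near 93%, and in library 6 it was 68.8%.

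HK1 (ENSMMUG00000015302), the hexokinase that binds mitochondria and is the main one of brain, had 134 CPM in endothelial nuclei, 103 CPM in microglia, 82.4 CPM in neurons and 79.7 CPM in astrocytes. Endothelial nuclei were 1.30-fold above microglia (1.09 to 1.54), and microglia 1.25-fold above neurons (1.14 to 1.37). Within libraries 5 to 8 the HK1 log2 ratio of microglia over neurons was -0.07. Over all libraries neurons and astrocytes were within counting error of each other (1.03-fold, 0.982 to 1.09), but the library sets went opposite ways. Astrocytes had 84.1 CPM (79.2 to 89.2) in libraries 1 to 4, against 74.5 CPM (72.8 to 76.2) in neurons, and 70.5 CPM (64.1 to 77.4) in libraries 5 to 8, against 88.9 CPM (87.2 to 90.6) in neurons. Oligodendrocytes stood apart at 18.7 CPM (16.8 to 20.7). HK1 was called lower in oligodendrocytes than in neurons (log2 ratio -2.14) and than in astrocytes (-2.09), in 8 of 8 libraries each. The HK1 log2 ratio to astrocytes was -1.27 within libraries 5 to 8. Oligodendrocyte precursors, from which these cells arise, had 46.4 CPM (42.2 to 50.9). The mature cells were 2.49-fold lower (2.16 to 2.87), in 6 of 8 libraries, so this was not called over all libraries. It was called in libraries 1 to 4 alone (log2 ratio -1.39). In libraries 5 to 8 the mature cells had 29.2 CPM of HK1, against 30.8 CPM in precursors.

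HK2 (ENSMMUG00000011845), the inducible hexokinase, was highest in microglia. Its level was 170 CPM there (159 to 182; 855 UMIs), 20.4 CPM in astrocytes (18.4 to 22.5), 3.01 CPM in endothelial nuclei, 2.15 CPM in oligodendrocytes and 0.487 CPM in neurons (0.400 to 0.586). Microglial values were 115, 127, 199.8 and 231.5 CPM in libraries 1 to 4, and 59.5, 74.3, 38.2 and 31.9 CPM in libraries 5 to 8. All 8 lay above the highest astrocyte library, 30.6 CPM. The microglial level was 8.33-fold that of astrocytes (7.39 to 9.41) and 349-fold that of neurons (286 to 429.9). The log2 ratio to neurons was 8.45, with 7.84 with libraries weighted equally and 9.33 after removal of 5% of the all-nuclei profile. It was 7.74 in libraries 1 to 4 alone and 7.99 in libraries 5 to 8 alone, both below the value over all libraries. Neuronal HK2 was 0.84 CPM in libraries 1 to 4, which held 2763 of the 2969 microglia, and 0.20 CPM in libraries 5 to 8. The part of the astrocyte markers in the microglial HK2 level was not tested. The unnamed cluster with microglial genes had 11.3 CPM (8.29 to 15.01), and at a finer clustering HK2 had no leading class. After thinning, 13.7% of microglia (12.5 to 15.1%) and 0.0531% of neurons (0.0297 to 0.0876%) had an HK2 UMI, against 22.0% and 0.378% unthinned.

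Astrocytes were called higher than neurons for HK2 by 41.9-fold (33.9 to 52.3), in 8 of 8 libraries, a log2 ratio of 5.39 that became 6.25 after removal of 5% of the all-nuclei profile. Astrocyte HK2 was 20.3 to 30.6 CPM in libraries 1 to 4 and 4.42 to 12.1 CPM in libraries 5 to 8. In libraries 5 to 8 alone the log2 ratio was about the same, 5.43, but the astrocyte level was under 10 CPM and the call was lost. HK2 was called lower in oligodendrocytes than in astrocytes (log2 ratio -3.24) and lower in endothelial nuclei than in astrocytes (-2.76; 4 endothelial UMIs). Both calls were lost in libraries 5 to 8 alone, where astrocyte HK2 was 8.63 CPM, under the 10 CPM of the rule. Neither lower class had an HK2 UMI there, so the log2 ratios (-0.565 and -0.28) rest on a floor of 3 counts. The oligodendrocyte call was also lost with doublets kept (-2.32). Without library 3 the oligodendrocyte log2 ratio was -2.655, still called. HK2 made up 62.2% of the hexokinase pair in microglia (59.6 to 64.8%), 20.4% in astrocytes, 10.3% in oligodendrocytes, 2.20% in endothelial nuclei and 0.587% in neurons. Newly formed oligodendrocytes stood at 26.8% (19.9 to 34.7%).

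PFKFB3 (ENSMMUG00000010596), whose product drives glycolysis, was high in microglia and in astrocytes and low in oligodendrocytes. Microglia had 344 CPM (328 to 361) and astrocytes 299.9 CPM (292 to 308), and microglia were the higher in 5 of 7 libraries. In microglia 8 of 10 astrocyte markers reached 20 CPM, their sum ran from 1992 to 3550 CPM over libraries and FGFR3 was at 0, and their part in the microglial PFKFB3 and LDHA levels was not tested. Endothelial nuclei had 127 CPM, neurons 71.1 CPM and oligodendrocytes 25.8 CPM. In astrocytes the library values were 229, 241, 394 and 402 CPM in libraries 1 to 4 and 290, 279, 274.5 and 276 CPM in libraries 5 to 8. In neurons they were 40.2, 44.3, 35.5 and 37.3 CPM in libraries 1 to 4 and 94.5, 97.0, 98.1 and 96.9 CPM in libraries 5 to 8. Every astrocyte library was above every neuronal library. PFKFB3 was called higher than in neurons in astrocytes (4.22-fold, 4.09 to 4.35) and in microglia (4.84-fold, 4.61 to 5.09). Its log2 ratio of astrocytes over neurons was 2.97 in libraries 1 to 4 and 1.53 in libraries 5 to 8, and that of microglia over neurons 3.13 and 1.70.

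Oligodendrocytes were 11.62-fold below astrocytes for PFKFB3 (10.6 to 12.8; log2 ratio -3.54), in 8 of 8 libraries, and the call also held in libraries 1 to 4 (-3.615) and 5 to 8 (-2.645) alone. Against neurons the log2 ratio was -1.46 and called, but the library ranges overlapped, at 20.9 to 75.8 CPM in oligodendrocytes and 35.5 to 98.1 CPM in neurons. That call was lost in libraries 1 to 4 alone (-0.65), with libraries weighted equally (-0.975) and with doublets kept (-1.02). It was kept in libraries 5 to 8 alone (-1.11). The difference within each library set was thus smaller than over all libraries. Of the 5981 oligodendrocytes, 5717 were from libraries 1 to 4, where neuronal PFKFB3 was 39.6 CPM, against 96.6 CPM in libraries 5 to 8. Endothelial nuclei were called lower than astrocytes (log2 ratio -1.24). They were 1.79-fold above neurons (1.53 to 2.08) in 2 of 3 libraries, not called, but called in libraries 1 to 4 alone (log2 ratio 1.78). Ependymal cells had 195 CPM (181 to 209), evenly over libraries at 165 to 218 CPM. In nuclei thinned to 1000 UMIs, PFKFB3 was seen in 26.7% of microglia, 22.3% of astrocytes, 10.3% of endothelial nuclei, 6.22% of neurons and 2.79% of oligodendrocytes, against 38.6%, 38.5%, 26.1%, 34.5% and 7.29% unthinned. Astrocytes and neurons thus had close shares before thinning and unlike ones after it.

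LDHA (ENSMMUG00000031024), the subunit of the isoenzyme known for forming lactate, had 34.2 CPM in microglia (29.3 to 39.7), 34.1 CPM in astrocytes (31.5 to 36.8) and 27.9 CPM in endothelial nuclei (19.6 to 38.4). These classes were within counting error of each other. Oligodendrocytes had 12.5 CPM and neurons 8.80 CPM. LDHA was called higher than in neurons in astrocytes (3.87-fold, 3.54 to 4.23) and in endothelial nuclei (3.17-fold, 2.22 to 4.38). Astrocyte values were 41.9 CPM or more in each of libraries 1 to 4 and 7.57, 10.6, 11.5 and 7.33 CPM in libraries 5 to 8, where neurons had 7.26 to 7.96 CPM. The astrocyte and neuron ranges thus overlapped in libraries 5 to 8, with an LDHA log2 ratio of 0.275 there and 2.17 in libraries 1 to 4. Endothelial LDHA likewise had a log2 ratio to neurons of 0.31 in libraries 5 to 8 (4 UMIs), and both calls were lost there. The astrocyte call was lost as well with trimmed-mean scaling (1.76), at a finer clustering (2.30) and with a stricter filter on genes per nucleus (1.98). Microglia were 3.88-fold above neurons (3.30 to 4.54) in 6 of 7 libraries, which was not called. In libraries 5 to 8 the class had 3 LDHA UMIs, or 8.47 CPM (1.75 to 24.7).

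LDHB (ENSMMUG00000002679), the subunit of the isoenzyme that favours the making of pyruvate, followed another order. Astrocytes had 56.6 CPM (53.3 to 60.1), oligodendrocytes 46.1 CPM (43.1 to 49.3), neurons 24.1 CPM, microglia 22.7 CPM and endothelial nuclei 19.6 CPM. The highest level of any class was in newly formed oligodendrocytes, at 94.9 CPM (86.7 to 104; 1262 nuclei). LDHB was called higher in astrocytes than in neurons (2.34-fold, 2.19 to 2.50; 8 of 8 libraries) and lower in endothelial nuclei than in astrocytes (log2 ratio -1.53). Library values were 60.5 to 81.2 CPM in astrocytes and 29.4 to 34.9 CPM in neurons in libraries 1 to 4, and 30.6 to 41.0 CPM in astrocytes and 16.4 to 18.6 CPM in neurons in libraries 5 to 8. Both classes were lower in libraries 5 to 8, and the log2 ratio was 1.04 within libraries 1 to 4 and 1.08 within libraries 5 to 8, both called. At a finer clustering the call was lost (1.38), as the direction then differed in at least 1 library.

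The LDHA share of the dehydrogenase pair was 60.1% in microglia (54.2 to 65.9%), 58.7% in endothelial nuclei (45.6 to 71.0%), 37.6% in astrocytes (35.3 to 39.9%), 26.7% in neurons (25.7 to 27.7%) and 21.4% in oligodendrocytes (19.0 to 23.9%). Immature neurons had 48.1% (41.5 to 54.7%), against 26.6% in excitatory and 24.4% in inhibitory neurons, and 2030 of the 2084 immature nuclei were from libraries 1 to 4. Newly formed oligodendrocytes had 10.1% (7.67 to 12.9%), the lowest of all classes. In astrocytes the share ran from 15.3 to 45.0% over libraries, and in neurons from 20.8 to 30.9%. The order of these classes turned on the library set. In libraries 1 to 4 astrocytes had 599 LDHA and 857 LDHB UMIs and neurons 1034 and 3244, the higher share in astrocytes. In libraries 5 to 8 astrocytes had 58 and 234 and neurons 956 and 2214, the higher share in neurons.

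**Figure D4:**
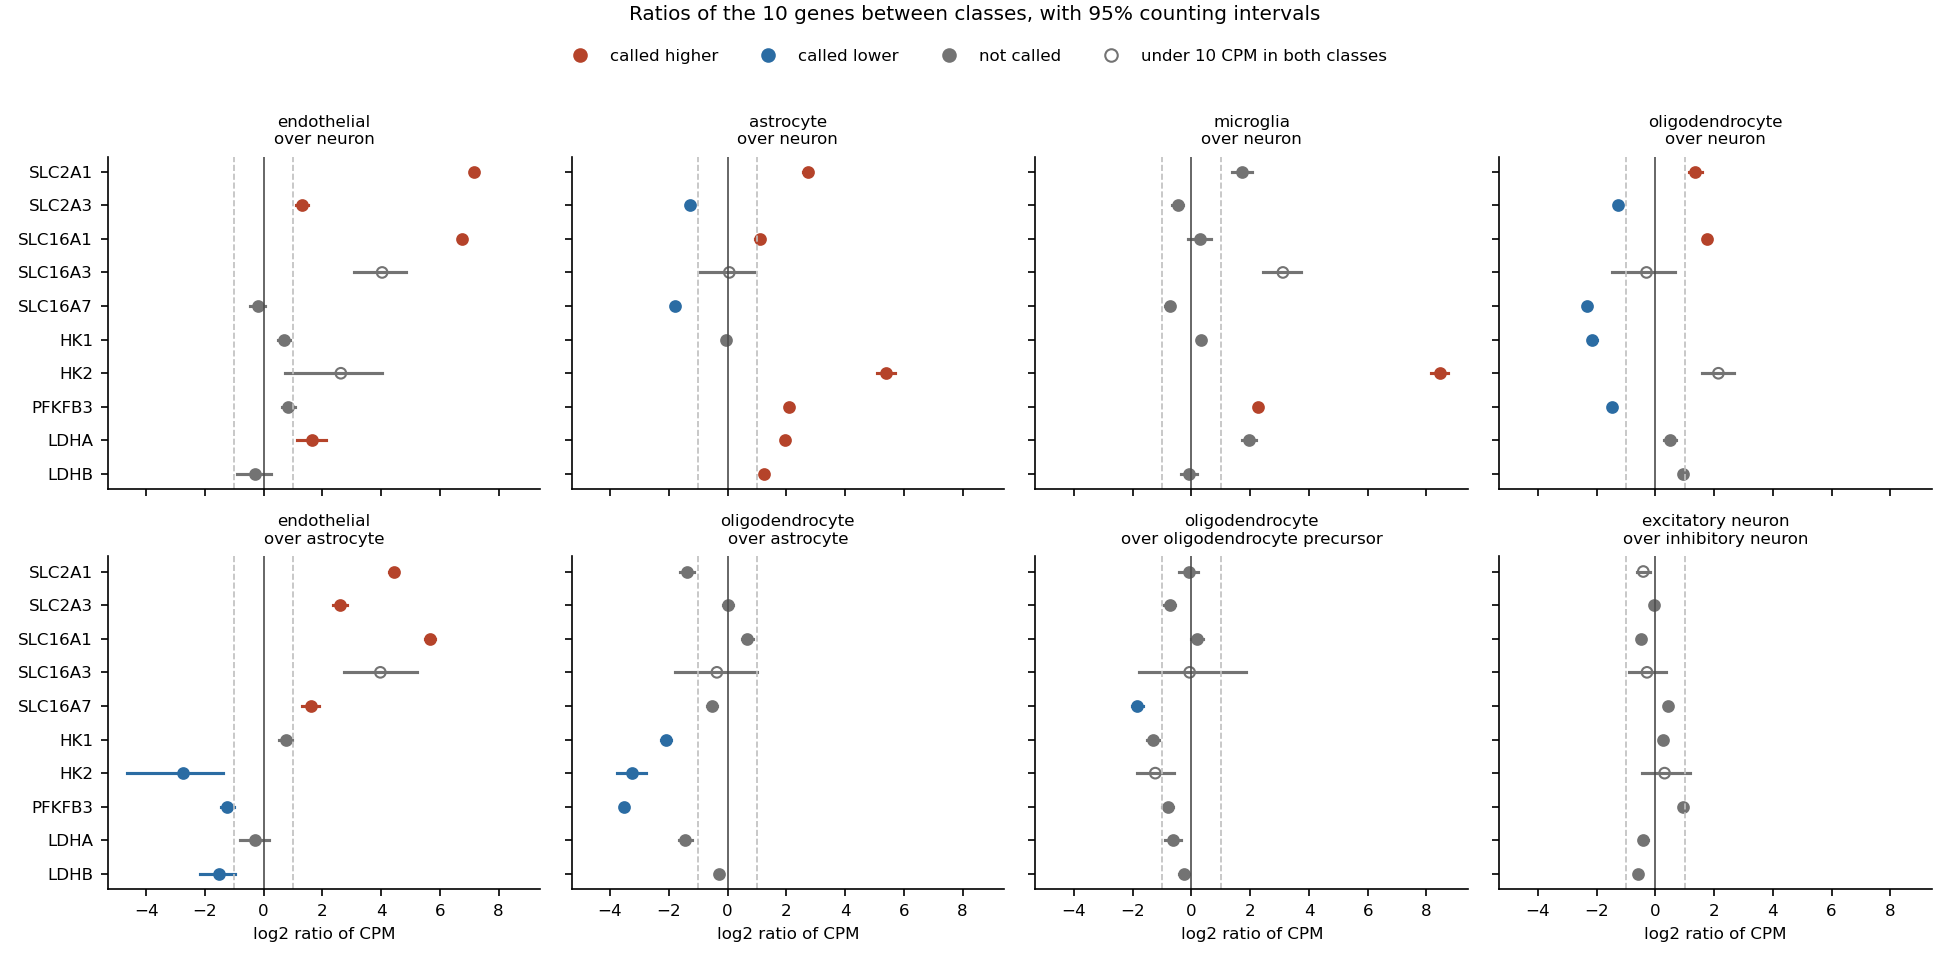
Log2 ratio of CPM (x axis) for the 10 genes in 8 comparisons of classes, with exact 95% counting intervals; dashed lines mark 2-fold, colours mark the call, and open points are genes under 10 CPM in both classes. The SLC2A1 and SLC16A1 log2 ratios of endothelial nuclei over neurons were 7.16 and 6.77, that of HK2 in microglia over neurons was 8.45, and no gene passed the rule between excitatory and inhibitory neurons.

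Counted over the set, endothelial nuclei were called higher than neurons for 4 of 8 measured members (SLC2A1, SLC2A3, SLC16A1 and LDHA), where 22.3% of all genes were called higher, and lower for 0 (20.7% of all genes). Within libraries 5 to 8 alone 2 members were called higher, SLC2A1 and SLC16A1. The shares of all genes, here and below, are those over all libraries. Astrocytes were called higher than neurons for 6 of 9 members (17.2% of all genes) and lower for 2 (14.6%), the lower ones being SLC2A3 and SLC16A7, the carriers known from neurons. The count higher was 3 within libraries 5 to 8. Microglia were called higher than neurons for 2 of 9 members (16.8% of all genes), HK2 and PFKFB3, and lower for 0 (16.1%). SLC2A1 at 3.32-fold (2.58 to 4.21) and LDHA at 3.88-fold missed the rule by library 6, which had no microglial UMI of either, and without it 4 members were called. Against neurons, oligodendrocytes were called higher for 2 of 8 members (12% of all genes) and lower for 4 (20.7%). Of these 4, PFKFB3 was not called within libraries 1 to 4 alone, and SLC2A3 not within libraries 5 to 8 alone. The median log2 ratio of the measured members was 1.23 for astrocytes over neurons, against 0.16 over all genes measured, and -0.37 for oligodendrocytes over neurons, against -0.02.

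Set against astrocytes, endothelial nuclei were called higher for 4 of 9 members (14.8% of all genes), all of them carriers, and lower for 3 (17.8%): HK2, PFKFB3 and LDHB. SLC16A7 was among the 4, at 3.04-fold (2.50 to 3.67). Oligodendrocytes were called lower than astrocytes for 3 of 9 members (16.3% of all genes), the enzymes HK1, HK2 and PFKFB3, and higher for 0 (8.45%). Their median log2 ratio was -1.37, against -0.20 over all genes measured. In libraries 1 to 4 alone 5 members were called lower, with SLC2A1 (log2 ratio -1.635) and LDHA (-1.855) added; in libraries 5 to 8 the SLC2A1 log2 ratio was 0.094. These comparisons share classes, so they are not independent of one another.

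Within the oligodendrocyte lineage, mature cells were called lower than precursors for 1 of 8 members (12.9% of all genes) and higher for 0 (7.97%). The gene was SLC16A7, at 22.6 CPM in mature cells and 81.0 CPM in precursors, a 3.58-fold difference (3.17 to 4.03) in 8 of 8 libraries. Newly formed oligodendrocytes lay between, at 48.3 CPM (42.4 to 54.6). SLC16A1 had 32.7 CPM in mature cells and 28.8 CPM in precursors, within counting error. The SLC16A1 share of the pair was therefore 59.1% in mature cells, 36.5% in newly formed cells and 26.2% in precursors.

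Between excitatory and inhibitory neurons none of 7 measured members was called, where 6.14% of all genes were higher and 6.43% lower in excitatory neurons. PFKFB3 came closest, at 78.3 CPM in excitatory and 41.0 CPM in inhibitory neurons, a 1.91-fold difference (1.81 to 2.01) in 8 of 8 libraries. It was called with trimmed-mean scaling (log2 ratio 1.04), after removal of 5% of the all-nuclei profile (1.02) and in libraries 5 to 8 alone (1.05). SLC16A7 and HK1 were higher in excitatory neurons in 8 of 8 libraries, by 1.34-fold and 1.19-fold, and LDHA and LDHB lower in 8 of 8, at 0.753 and 0.670 of the inhibitory level. Single excitatory clusters spread widely: over 18 clusters PFKFB3 ran from 26.2 to 166 CPM, SLC16A7 from 55.4 to 215 CPM and HK1 from 55.5 to 118 CPM. Immature neurons had LDHA at 27.4 CPM (22.6 to 32.9) and SLC16A1 at 21.8 CPM (17.6 to 26.8), each above the excitatory levels of 7.96 and 8.70 CPM. Of the 2084 immature nuclei, 2030 were from libraries 1 to 4. In libraries 5 to 8 the class had 2 LDHA UMIs and no SLC16A1 UMI. It also carried astrocyte markers at a summed 2253 CPM and precursor markers at 1642 CPM, against 1713 and 531 CPM in excitatory neurons. The part of these markers in its LDHA and SLC16A1 levels was not tested.

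A list of 88 other genes of sugar, lactate and glycogen handling was read with the same rule; 70 of them reached 10 CPM in at least 1 of the 5 classes. The endothelial class led for 9 of the 70 (5.76% of all genes had this leading class). These were the sugar carrier SLC2A12, the monocarboxylate carriers SLC16A4 and SLC16A6, and the carrier chaperones BSG and EMB. The others were the pyruvate dehydrogenase kinase PDK4, the glycogen branching enzyme GBE1, and EPAS1 and EGLN1 of the hypoxia-inducible factor pathway. BSG, which brings SLC16A1 to the membrane, had 564 CPM in endothelial nuclei, against 36.7 CPM in astrocytes and 48.2 CPM in neurons. EPAS1, a hypoxia-inducible transcription factor, had 1238 CPM in endothelial nuclei, 46.0 CPM in astrocytes and 1.04 CPM in neurons. Over the list, 17 of 63 measured genes were called higher (22.3% of all genes) and 11 lower (20.7%) in endothelial nuclei than in neurons, with a median log2 ratio of 0.15 beside 0.18 over all genes.

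Astrocytes led for 5 of the 70 (3.96% of all genes). Among them were the aldolase ALDOC, the glycogen genes PYGM and PPP1R3C, and the growth factor VEGFA. Against neurons, 23 of 67 measured pathway genes were called higher in astrocytes (17.2% of all genes) and 7 lower (14.6%). Among the other glycolytic enzymes 6 of 13 were higher and none lower (PFKL, ALDOC, TPI1, GAPDH, PGK1 and ENO1), with a median log2 ratio of 1.07, beside 0.16 over all genes. Glycogen genes counted 5 higher and none lower of 12. PPP1R3C, which directs a phosphatase to glycogen, had 153 CPM in astrocytes and 1.89 CPM in neurons (80.6-fold). PYGM, a glycogen phosphorylase, had 22.1 CPM in astrocytes and 0.323 CPM in neurons (68.5-fold). The 7 lower genes included SLC2A13, a myo-inositol carrier, with 92.6 CPM in astrocytes and 348 CPM in neurons.

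Microglia led for 4 of the 70, a share near the 5.02% of all genes. These were the fructose carrier SLC2A5, the ADP-dependent glucokinase ADPGK, and the sugar-responsive transcription factors MLXIP and MLXIPL. SLC2A5 had 684 CPM in microglia and 1.75 CPM in neurons (391-fold), in 7 of 7 libraries. TXNIP, which restrains glucose uptake, had 289.5 CPM in microglia and 15.03 CPM in neurons. PFKP, a phosphofructokinase, was lower in microglia at 16.3 CPM, against 87.1 CPM in neurons. In all, 11 of 62 pathway genes were called higher (16.8% of all genes) and 4 lower (16.1%) in microglia than in neurons, so the share higher was near that of all genes.

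Oligodendrocytes led for 3 of the 70, a share near the 3.29% of all genes. These were SLC16A8, a lactate carrier known from the retinal pigment epithelium, the pyruvate dehydrogenase subunit PDHB, and EGLN3, an oxygen sensor of the hypoxia pathway. Neurons led for 1 of the 70, SLC2A9 (5.48% of all genes). SLC16A8 had 34.0 CPM in oligodendrocytes, 0.519 CPM in astrocytes, 1.47 CPM in neurons and 4.14 CPM in precursors. It was higher than in astrocytes, neurons and precursors in 8 of 8 libraries each. EGLN3 had 79.8 CPM in oligodendrocytes and 2.93 CPM in neurons. Against astrocytes, 15 of 66 pathway genes were called lower in oligodendrocytes (16.3% of all genes) and 5 higher (8.45%). The lower ones included 6 of 13 other glycolytic enzymes (PFKL, PFKM, PFKP, ALDOC, ENO1 and ENO2) and 6 of 13 glycogen genes, with none higher on either list. PFKP had 7.91 CPM in oligodendrocytes and 87.1 CPM in neurons, an 11.0-fold difference. Against neurons, 9 of 61 pathway genes were called higher (12% of all genes) and 12 lower (20.7%) in oligodendrocytes. Against precursors 4 of 60 were higher (7.97% of all genes) and 4 lower (12.9%). The count lower than astrocytes was above the share of all genes, and the count lower than precursors was below it. The other shares were near those of all genes.

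Endothelial nuclei set against astrocytes gave 11 of 65 pathway genes higher (14.8% of all genes) and 14 lower (17.8%), both near the shares of all genes. Of the other lactate and pyruvate carriers and their chaperones 4 of 5 were higher and none lower (SLC16A4, SLC16A6, BSG and EMB), while of the glycogen genes 2 of 13 were higher (GBE1 and PGM2) and 6 lower. GBE1 was 8.76-fold higher in endothelial nuclei than in astrocytes (8.02 to 9.55), in 3 of 3 libraries. Between excitatory and inhibitory neurons 1 of 58 pathway genes was called higher (6.14% of all genes) and 4 lower (6.43%) in excitatory neurons. The higher one was MLXIPL, with 16.1 CPM in excitatory and 2.52 CPM in inhibitory neurons (6.38-fold, in 8 of 8 libraries).

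**Figure D5:**
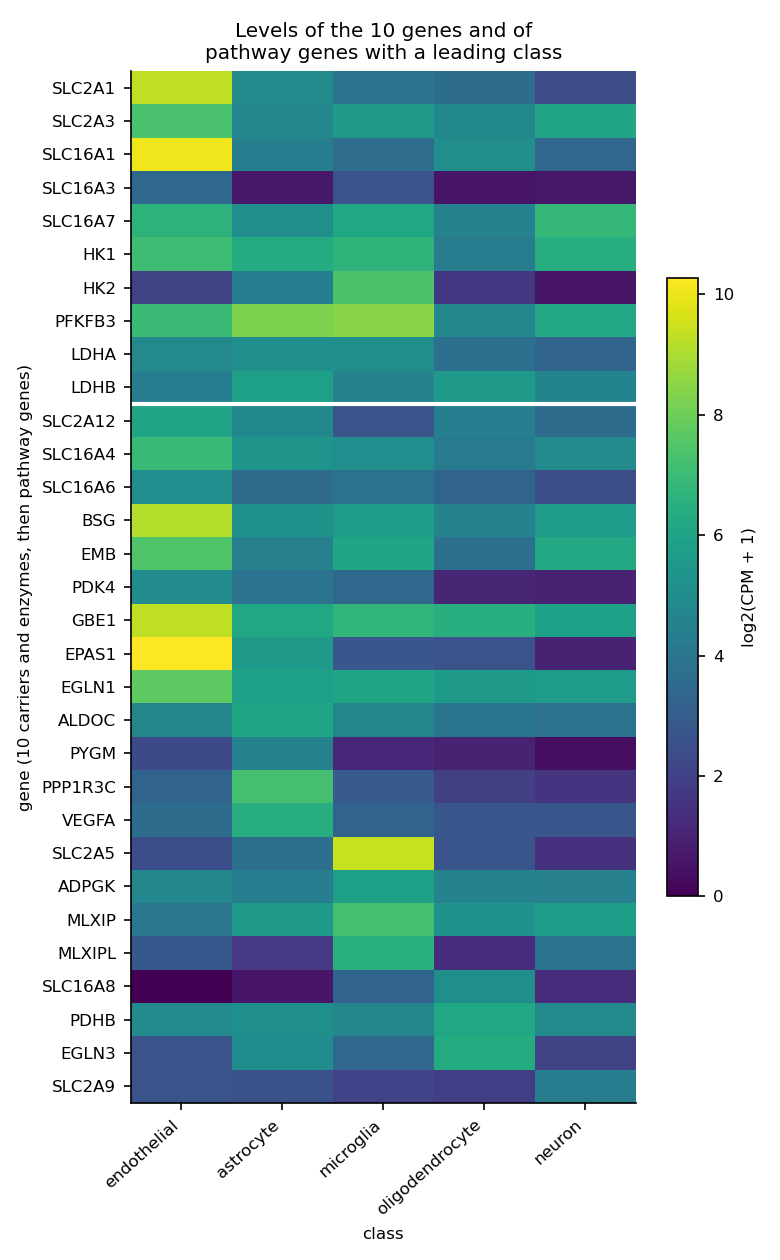
Level as log2(CPM + 1) (colour) of the 10 genes (above the white line) and of 21 pathway genes with a leading class (below it), in the 5 classes. The endothelial column is brightest for SLC2A1, SLC16A1, BSG, GBE1 and EPAS1, and the microglial column for SLC2A5 at 684 CPM.

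Across the 45 clusters of at least 50 nuclei, SLC2A1 and SLC16A1 had a Pearson r of 0.926 with each other on the log2(CPM + 1) scale. Among 13697 genes, the one most like SLC2A1 was the tight-junction gene CLDN5 (r = 0.951), and the one most like SLC16A1 was FLT1 (r = 0.931), a receptor of vascular growth factors. HK2 was most like C1QC (r = 0.830), a complement gene of microglia, and PFKFB3 most like MERTK (r = 0.742), a receptor for engulfment in glia. The nearest genes were RASA2 for SLC2A3 (0.765), FAM155A for SLC16A7 (0.793), RAB6B for HK1 (0.841), SRP14 for LDHA (0.907) and TSGA10IP for LDHB (0.779). The clusters share libraries and differ in depth, so these values are descriptions and carry no test.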

How the data were processed

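The labels' protocols give 10x Genomics v3 chemistry for the 3' libraries. The deposited matrix holds raw UMI counts per gene and barcode in the output format of Cell Ranger 3.1.0, per the file headers. CASAVA 1.8 and Seurat are also named, with no role, by the submitters' processing notes. The genome build is not given in the sources used here. Barcode suffixes 1 to 8 were taken as libraries, with 35806547 to 47007082 UMIs each.

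A minimum of 500 UMIs and 300 genes left 58220 of 59749 nuclei. Simulated doublets were scored over 50 neighbours, and the 3576 nuclei with the highest scores were removed, at a rate of 0.8% per 1000 nuclei. The counts of 2000 variable genes, without the 10 genes and the pathway list, were scaled to 10000 per nucleus, reduced to 30 principal components and clustered over 20 neighbours (Leiden resolution 1.0, seed 1) into 43 clusters, of which the vascular ones were subdivided, giving 51. A cluster was named from a list if at least 3 of its markers reached 20 CPM and exceeded 0.5 of their highest scaled level. The list also had to lead unrelated lists by 0.1. A name was refused for a median doublet score of 0.5 or more, a leading gene of another type, under 50 nuclei, or low UMIs. Parts of the subdivided vascular clusters were exempt from these refusals. This scoring and the subdivision were settled after seeing the clusters. Unnamed clusters held 2138 nuclei.

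UMIs were summed per class and turned into CPM. Levels have exact Poisson intervals, ratios have binomial ones given the summed UMIs, and shares have Clopper-Pearson ones, all at 95% and for counting error only. A gene with no UMI was given a floor of 3 counts. Likeness was Pearson's r of log2(CPM + 1) over clusters. The rule for naming pathway genes was up to 3 called genes in each direction by fold for each comparison. Pathway genes named for having a leading class, or as called members of a counted list, fall outside it and were chosen after their values were seen. Of the 3 genes most like each member, the first is given, except that none is given for SLC16A3. The counts include 1 pathway gene that is not reported here by name. The members and all lists were chosen with earlier results of these data known. Of the 93 pathway genes, 88 are in the matrix. The calling code was tested on simulated data. Alternatives were trimmed-mean scaling (TMM), no minimum or 20 CPM, 1000 genes per nucleus, doublets kept, resolutions 0.5 and 2.0, equal weights, each library left out, 5% of the all-nuclei profile removed, and neurons without immature cells; libraries 1 to 4 only and 5 to 8 only were added after seeing the data. Python 3.11.15, scanpy 1.11.5, leidenalg 0.10.2, scipy 1.17.1 and, for the TMM factors, edgeR 4.0.16 in R 4.3.3 were used. No count test was run, because no suffix is tied to a sample.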

Additional observations from a re-analysis of the deposited data

Results flagged for a closer look

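Of the 40 pairs of a gene and a class, 4 had a library that stood far from the others by Dixon's criterion. Chance flags about 1 in 20 of such groups. SLC16A1 in microglia was 0 CPM in library 5 (0 UMIs in 59 nuclei), against 8.19 CPM in the nearest library. HK1 in microglia was 24.8 CPM in library 6 (2 UMIs in 52 nuclei), against 101.9 CPM in the nearest library checked. Library 8, with 39 microglial nuclei, was not checked and had 63.8 CPM. HK1 in oligodendrocytes was 53.4 CPM in library 5 (6 UMIs in 55 nuclei), against 27.6 CPM in the nearest, and SLC16A3 in oligodendrocytes was 7.58 CPM in library 8 (1 UMI in 68 nuclei), against 0.598 CPM in the nearest. Each value rests on 6 UMIs or fewer.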

How the results depend on the processing

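Over 1600 log2 ratios of the 10 genes under the alternatives, 1390 stayed within the interval of the main value. Of those that were called, 1 changed sign: SLC2A3 in endothelial nuclei over neurons, at -0.22 in libraries 5 to 8 only. Of those that were not called, 40 changed sign, from 20 different ratios. The restriction to libraries 1 to 4 or to 5 to 8 gave 18 of all sign changes, HK1 in astrocytes over neurons (0.18 in libraries 1 to 4 only) and SLC16A7 in microglia over neurons (0.18 in libraries 5 to 8 only) among them. Of the 31 calls, 8 were lost in libraries 5 to 8 only and 1 in libraries 1 to 4 only. TMM scaling, resolution 2.0 and equal weights lost 3 each, 1000 genes per nucleus and doublets kept 2 each, and resolution 0.5 and the minimum of 20 CPM 1 each. Leaving out a library lost 0. The number of members with a leading class was 3 to 5.

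Microglia were called higher than neurons for 4 members with 1000 genes per nucleus, with doublets kept and in libraries 1 to 4 only, and lower for 1 in libraries 1 to 4 only. With each library left out, the count higher in microglia was 2 to 4. Oligodendrocytes were called higher than neurons for 1 member at 20 CPM and lower for 2 with libraries weighted equally. In libraries 1 to 4 only, oligodendrocytes were lower than astrocytes for 5 members and than precursors for 2. In libraries 5 to 8 only, endothelial nuclei were higher than neurons for 2 and astrocytes higher than neurons for 3. Excitatory neurons were higher than inhibitory neurons for 1 member with TMM scaling, after removal of 5% of the all-nuclei profile and in libraries 5 to 8 only. The cause of these changes was not tested. Shares of all genes are given for the main setting only. These counts therefore do not tell a change in the members from a change in all genes.

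TMM moved the log2 ratios of all genes by -0.18 for endothelial nuclei, -0.20 for astrocytes and -0.23 for microglia over neurons, by 0.24 and 0.22 for oligodendrocytes over astrocytes and over precursors, and by 0.11 for excitatory over inhibitory neurons. No paired analysis was possible because the library suffixes carry no sample or replicate number and no test was run. The endothelial class had 426 nuclei, which limits its low genes: HK2 rests on 4 UMIs, SLC16A3 on 13 and LDHB on 26.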

Other observations

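Several genes fell into separate ranges in libraries 1 to 4 and 5 to 8, which the labels tie to no group, so no comparison was made. By library from 1 to 8, neuronal PFKFB3 was 40.2, 44.3, 35.5, 37.3, 94.5, 97.0, 98.1 and 96.9 CPM, while neuronal LDHB was 29.4, 31.7, 32.7, 34.9, 18.0, 18.6, 17.8 and 16.4 CPM. Neuronal HK1 was 78.8, 77.4, 68.8 and 71.2 CPM in libraries 1 to 4 and 87.8, 89.3, 90.2 and 88.3 CPM in libraries 5 to 8. Astrocyte SLC16A1 was 22.2, 22.8, 28.6 and 24.1 CPM in libraries 1 to 4 and 14.5, 11.9, 14.0 and 11.3 CPM in libraries 5 to 8. The values of PFKFB3 and LDHB thus separated in opposite directions within the same neuronal nuclei.

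Libraries 1 and 2 also differed from libraries 3 and 4. They had 724 and 705 oligodendrocyte nuclei, against 2211 and 2077 in libraries 3 and 4. Astrocyte PFKFB3 was 229 and 241 CPM in libraries 1 and 2 and 394 and 402 CPM in libraries 3 and 4, and microglial HK2 was 115 and 127 CPM in libraries 1 and 2 and 199.8 and 231.5 CPM in libraries 3 and 4.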
